A study of Mus musculus with 14 samples.

Results

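Cholesterol synthesis and SREBP2 genes were described here in mouse dendritic cells: 30 listed genes for the enzymes of the pathway, the transcription factors that drive it, the proteins that process those factors, a sterol carrier and a lipoprotein receptor. Members were taken from the list by symbol, each through the probe set that named 1 gene and had the highest mean level over all arrays. Of the 30, 29 were found among 18193 genes, all 29 were bright enough to test, and Acat2 was left out because no probe set listed here named it alone. The cells were grown from BALB/c marrow in recombinant granulocyte-macrophage colony-stimulating factor over 8 days, fed on days 3 and 6, and profiled on 14 Affymetrix arrays, 2 for each of 7 groups. All groups were pretreated for 1 h. DMSO cells received the solvent at 0.01%, CLIK148 cells 5 µM of that cathepsin L inhibitor, and CA074Me cells 5 µM of that cathepsin B inhibitor, with no stimulus. The other groups were DMSO then CpG at 25 µg/mL, DMSO then TNF-alpha at 500 U/mL, CLIK148 then CpG, and CA074Me then TNF-alpha. CLIK148 with TNF-alpha and CA074Me with CpG were not measured. CpG is an oligonucleotide ligand of Toll-like receptor 9 and TNF-alpha a cytokine. The labels do not state the time between stimulus and harvest, nor the age and sex of the mice. The labels number the biological replicates 1 and 2, and these numbers were read here as experiments 1 and 2.

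Cells make cholesterol from acetyl-CoA through mevalonate, isoprenoid diphosphates, squalene and lanosterol, and branches of the same route supply farnesyl and geranylgeranyl groups for anchoring proteins to membranes. The rate of the pathway is set largely by SREBP2, a transcription factor held in the endoplasmic reticulum while sterols are plentiful. When sterols fall, the escort SCAP carries it to the Golgi, where proteases release the active part, and INSIG proteins oppose that transport. In macrophages and dendritic cells the pathway is known to be remodelled during activation, and the lysosome, where cathepsins act, is also where lipoprotein cholesterol is freed.

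SREBP2 acts through sterol regulatory elements, usually beside binding sites for NF-Y (the CCAAT box) and Sp1 (the GC box), so the promoters were read for these motifs. RefSeq promoter windows of GRCm38.p6, from 250 bases before to 50 bases after each start, were matched for 26 of the 30 listed genes, which have 36 windows. On both strands, the sterol regulatory element TCACNCCAC was found in 1 member gene, Hmgcs1, and in 1.24% of all 32851 windows. The CCAAT box (CCAAT) was found in 21 of the 26 member genes and in 22 of their 36 windows, against 37.4% of all windows. The GC box (GGGCGG) was found in 22 of the 26 genes and 26 of the 36 windows, against 35.7% of all windows. A match is a description of the letters, not a site shown to be bound, and no match says only that these letters were not in this window. The 250 bases before the start are shown for Hmgcs1, the member with the element, and for Idi1 and Pmvk, chosen after their values were seen because they rose most with CpG. Hmgcs1 lies at chr13:119690101-119690350, Idi1 at chr13:8885356-8885605 and the first of the starts listed for Pmvk at chr3:89454291-89454540, all on the plus strand. The window of the other Pmvk start, at chr3:89459321-89459570 and not shown, held none of these motifs. Capitals mark the motifs, of which those matched on the minus strand read ATTGG or CCGCCC. In Hmgcs1 the element TCACCCCAC spans bases 137 to 129 before the start and overlaps no other match.
Hmgcs1: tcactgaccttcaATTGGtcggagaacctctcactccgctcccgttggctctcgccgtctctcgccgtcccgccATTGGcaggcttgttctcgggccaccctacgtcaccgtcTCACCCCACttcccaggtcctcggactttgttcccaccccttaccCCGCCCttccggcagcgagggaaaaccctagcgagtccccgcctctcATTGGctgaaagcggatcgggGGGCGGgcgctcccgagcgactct
Idi1: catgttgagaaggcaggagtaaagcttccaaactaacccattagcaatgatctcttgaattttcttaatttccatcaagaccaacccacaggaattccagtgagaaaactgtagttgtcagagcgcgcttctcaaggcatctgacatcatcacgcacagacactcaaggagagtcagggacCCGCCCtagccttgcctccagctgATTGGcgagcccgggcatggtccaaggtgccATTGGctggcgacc
Pmvk: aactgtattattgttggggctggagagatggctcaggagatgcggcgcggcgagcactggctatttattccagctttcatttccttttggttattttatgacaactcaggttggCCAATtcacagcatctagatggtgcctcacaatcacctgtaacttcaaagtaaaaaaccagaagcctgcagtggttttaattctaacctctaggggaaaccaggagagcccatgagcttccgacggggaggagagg

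The arrays behaved alike as a set, with array medians between 7.48 and 7.54 log2, and replicates of a group correlated with r from 0.961 to 0.985. Of all genes, 12192 passed the filter on dim values. All 10 dendritic cell markers examined exceeded the overall median of 7.52 log2 on all 14 arrays, with H2-Ab1, for example, between 14.4 and 14.8. So did the 7 macrophage markers on the array (Csf1r between 14.0 and 14.7) and the 7 granulocyte markers (S100a8 between 14.7 and 15.1), so the cultures also held RNA of genes that mark other myeloid cells. Of the 7 lymphocyte and plasmacytoid markers, Cd3e and Siglech exceeded it on all 14 arrays, neither above 7.95, Ms4a1 on 9, Nkg7 on 2, and Cd3g, Cd79a and Ncr1 on none. Of the 6 erythroid and stromal markers, Dcn exceeded it on 7 arrays and Hba-a1, Alas2, Col1a1, Col1a2 and Col3a1 on none. From bulk RNA, fewer cells of a type and less RNA per cell cannot be told apart. As a check of stimulation, all 6 of Il12b, Cd40, Ccl22, Relb, Nfkbiz and Lad1 rose with CpG, and Relb and Lad1 rose with TNF-alpha.

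Differences are given as log2 values with their standard error, from limma fitted to all arrays, with 2 arrays per group and p adjusted over the 12192 genes. A gene is said to have risen or fallen where the adjusted p was under 0.05. Since each experiment supplied 1 array to every group, a second limma fit with the experiment as a block stands beside the first. Values for experiments 1 and 2 are differences between single arrays. Whether the arrays of 2 groups overlapped is a description of the named genes. The share of all tested genes without overlap was not counted.

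With CpG, expression rose for 2 of the 29 genes in the fit without the block, both in the part of the pathway between mevalonate and the isoprenoid diphosphates. Over all tested genes 1.92% were called, 1.07% as higher. Pmvk encodes phosphomevalonate kinase. It read 10.64 and 10.86 log2 in DMSO cells (experiments 1 and 2) and 12.36 and 11.72 with CpG. Both CpG arrays lay above both DMSO arrays, and the difference was 1.29 ± 0.26 log2, or 2.44-fold (adjusted p = 0.0450, and 0.0114 with the block, limma). Idi1, the isomerase that makes dimethylallyl diphosphate, read 13.06 and 12.90 in DMSO cells and 14.23 and 13.84 with CpG. Again the groups did not overlap, and the 2.07-fold difference of 1.05 ± 0.13 had an adjusted p of 0.00896, and of 0.000997 with the block (limma). These calls depended on single arrays. Without the block, that of Pmvk was lost when DMSO replicate 1 (adjusted p = 0.287), DMSO replicate 2 (0.158) or CpG replicate 1 (0.302) was left out, and that of Idi1 without either DMSO array (0.0718 and 0.0894). With the block, Idi1 remained called in all 4 fits that left out 1 array, and Pmvk in 2 of 4.

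**Figure D1:**
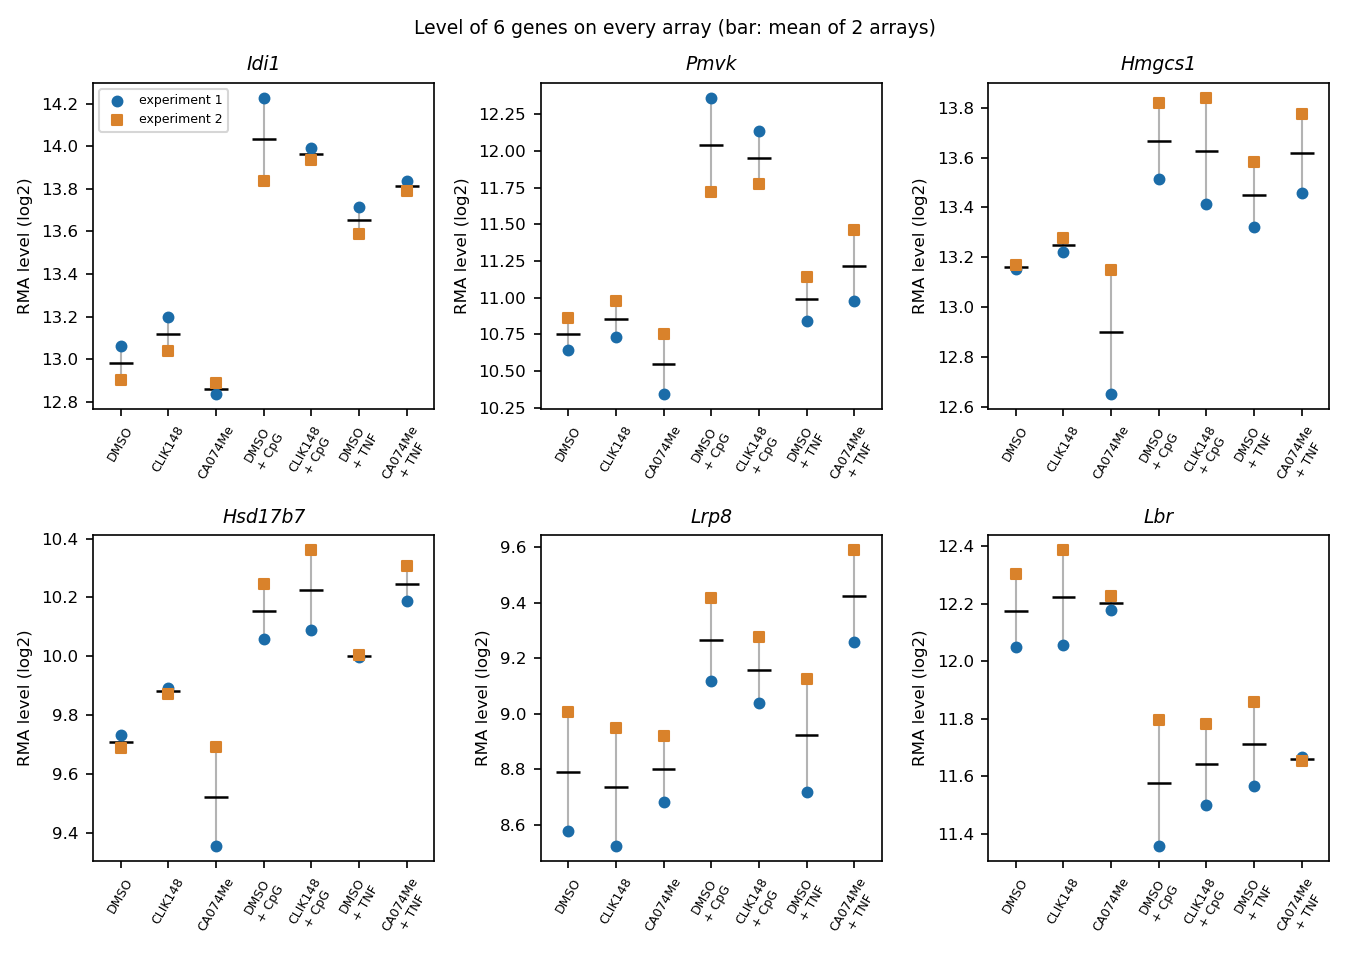
RMA level in log2 of Idi1, Pmvk, Hmgcs1, Hsd17b7, Lrp8 and Lbr on each array of the 7 groups (circle, experiment 1; square, experiment 2; bar, mean of 2 arrays), on axes that do not start at 0. Idi1 lay between 12.84 and 13.20 on the 6 arrays without a stimulus and between 13.59 and 14.23 on the 8 arrays with one, while Lbr lay lower on all 8.

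With the experiment as a block, 11 of the 29 genes changed with CpG, 7 higher and 4 lower. Over all tested genes 19.8% changed in that fit, 6.18% higher and 13.7% lower, so the count of lower members was near the background. Beside Pmvk and Idi1, the higher genes were Hmgcs1, Fdps, Fdft1, Hsd17b7 and Lrp8. Hmgcs1, the synthase that forms HMG-CoA, read 13.15 and 13.17 in DMSO cells and 13.51 and 13.82 with CpG. Both stimulated arrays were above both controls, by 0.51 ± 0.20 on average (limma adjusted p = 0.236, and 0.0184 with the block). Fdps, which builds farnesyl diphosphate, went from 12.31 and 12.19 to 12.62 and 12.74. Fdft1, squalene synthase, went from 11.84 and 11.89 to 12.08 and 12.54. Neither pair of groups overlapped. The differences were 0.43 ± 0.13 for Fdps (limma adjusted p = 0.129, and 0.0179 with the block) and 0.44 ± 0.30 for Fdft1 (0.472, and 0.0366 with the block). With the probe sets of each gene averaged, they were 0.29 for Fdps and 0.27 for Fdft1.

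The remaining enzymes of squalene and lanosterol formation gave no call with CpG in either fit. Squalene epoxidase (Sqle) differed by 0.18 ± 0.32 and lanosterol synthase (Lss) by 0.41 ± 0.24. Mevalonate kinase (Mvk) differed by -0.01 ± 0.12 and mevalonate diphosphate decarboxylase (Mvd) by 0.12 ± 0.21. Ggps1, which makes geranylgeranyl diphosphate, differed by -0.02 ± 0.09. Mevalonate kinase, the decarboxylase and Ggps1 therefore stood apart from their neighbours Pmvk, Idi1 and Fdps in giving no call, a difference between genes that was not itself tested.

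Among the 9 enzymes from lanosterol to cholesterol, 1 rose and 1 fell with CpG in the blocked fit (background 6.18% higher and 13.7% lower). Hsd17b7, a sterol ketoreductase, read 9.73 and 9.69 in DMSO cells and 10.06 and 10.24 with CpG. The groups did not overlap, and the difference was 0.44 ± 0.13 (limma adjusted p = 0.121, and 0.0184 with the block). Lbr, a sterol reductase that also anchors lamin B at the inner nuclear membrane, read 12.05 and 12.30 in DMSO cells and 11.36 and 11.80 with CpG. It fell by 0.60 ± 0.18 (limma adjusted p = 0.133, and 0.00803 with the block). The other 7, Cyp51, Tm7sf2, Msmo1, Nsdhl, Ebp, Sc5d and Dhcr7, ran from -0.42 for the isomerase Ebp to 0.34 for the desaturase Sc5d and passed neither fit. Dhcr7, the reductase of the last step, read 9.50 and 9.32 in DMSO cells and 8.65 and 9.56 with CpG, so its groups overlapped and its experiments had opposite signs.

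Of the 8 genes for SREBP and its processing, 3 fell with CpG in the blocked fit and none rose. Over all tested genes 13.7% were lower and 6.18% higher in that fit. Scap read 10.17 and 10.33 in DMSO cells and 9.47 and 10.08 with CpG, a difference of -0.48 ± 0.19 (limma adjusted p = 0.223, and 0.0487 with the block). Insig2 went from 9.96 and 10.11 to 9.58 and 9.83, a difference of -0.33 ± 0.15 (0.269, and 0.0107 with the block). Mbtps2, one of the Golgi proteases, went from 10.26 and 10.35 to 10.01 and 10.05, a difference of -0.27 ± 0.08 (0.116, and 0.0331 with the block). In all 3 both CpG arrays lay below both DMSO arrays, a description of genes already called. When 1 array was left out of the blocked fit, Insig2 remained called in 2 of 4 fits and Scap and Mbtps2 in 1 of 4, with Scap between -0.73 and -0.23 (adjusted p up to 0.352). A second, dim probe set for Scap read -0.02, and the mean of both sets was -0.25. Srebf2, which encodes SREBP2, differed by 0.14 ± 0.14 and Srebf1 by -0.13 ± 0.20, and neither passed in either fit. Insig1 differed by 0.16 ± 0.13, Mbtps1 by 0.06 ± 0.11 and Spring1, needed for SREBP processing, by -0.05 ± 0.08.

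Outside synthesis, Lrp8, a lipoprotein receptor, read 8.58 and 9.01 in DMSO cells and 9.12 and 9.42 with CpG. The difference was 0.47 ± 0.22 (limma adjusted p = 0.302, and 0.00403 with the block), and with the block it remained called in 3 of 4 fits that left out 1 array. In the same fits Pmvk, Hmgcs1, Fdps and Lbr remained called in 2 of 4, and Fdft1 and Hsd17b7 in 1 of 4. Stard4, a cytosolic sterol carrier, read 10.63 and 10.46 against 9.86 and 10.63, with opposite signs in the 2 experiments. The number of blocked calls was 4 without DMSO replicate 1, 5 without DMSO replicate 2, 2 without CpG replicate 1 and 14 without CpG replicate 2.

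**Figure D2:**
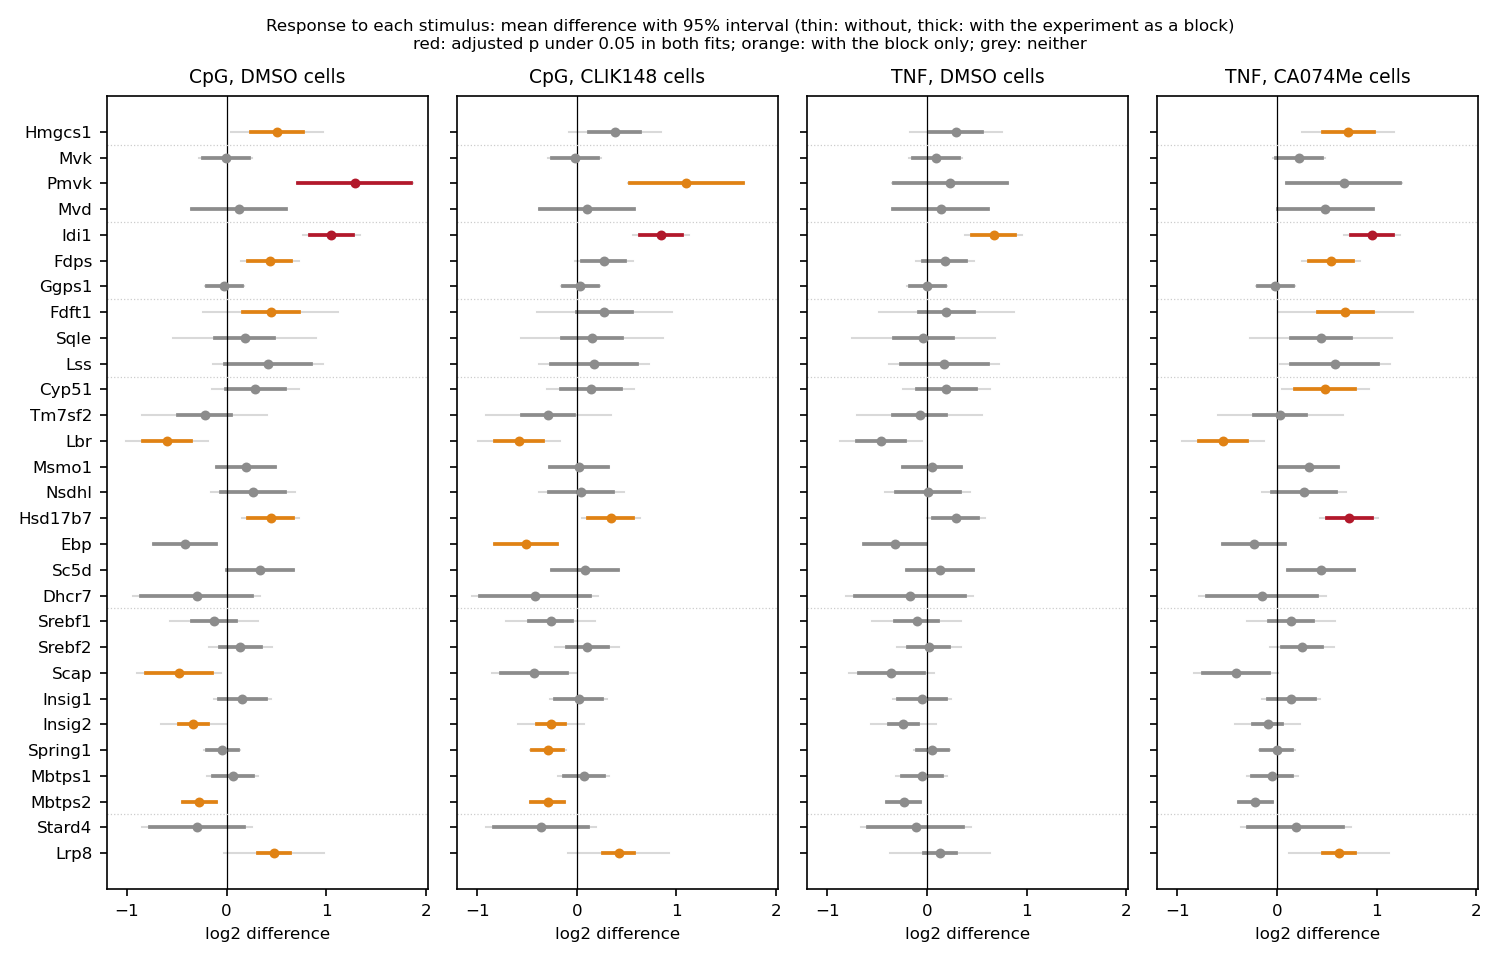
Mean log2 difference of each of the 29 genes with its 95% interval for 4 responses: CpG in DMSO cells, CpG in CLIK148 cells, TNF-alpha in DMSO cells and TNF-alpha in CA074Me cells (thin line, without the block; thick line, with it). Red points passed both fits, orange points the blocked fit, and grey points neither; Idi1 is red in 3 panels and orange in the third.

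The response to CpG differed between the experiments. The median over the 29 genes was 0.14 log2 against -0.05 over all tested genes, but it was -0.04 in experiment 1 and 0.33 in experiment 2. Without CpG replicate 2 it was -0.038, without CpG replicate 1 0.28 and without DMSO replicate 2 0.042. For the 19 synthesis enzymes the medians were 0.00 in experiment 1 and 0.55 in experiment 2. Above DMSO in both experiments were 9 of the 29 genes, against 25.4% of all tested genes, and below it in both were 7, against 41.6%. Lss read 9.78 in DMSO cells and 9.76 with CpG in experiment 1, and 9.62 and 10.46 in experiment 2. Mvd went from 10.10 to 9.79 in experiment 1 and from 9.66 to 10.22 in experiment 2. Pmvk and Idi1 ran the other way, with larger rises in experiment 1 (1.72 and 1.17) than in experiment 2 (0.86 and 0.93). With 1 array per group in each experiment, these gaps have no test.

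**Figure D3:**
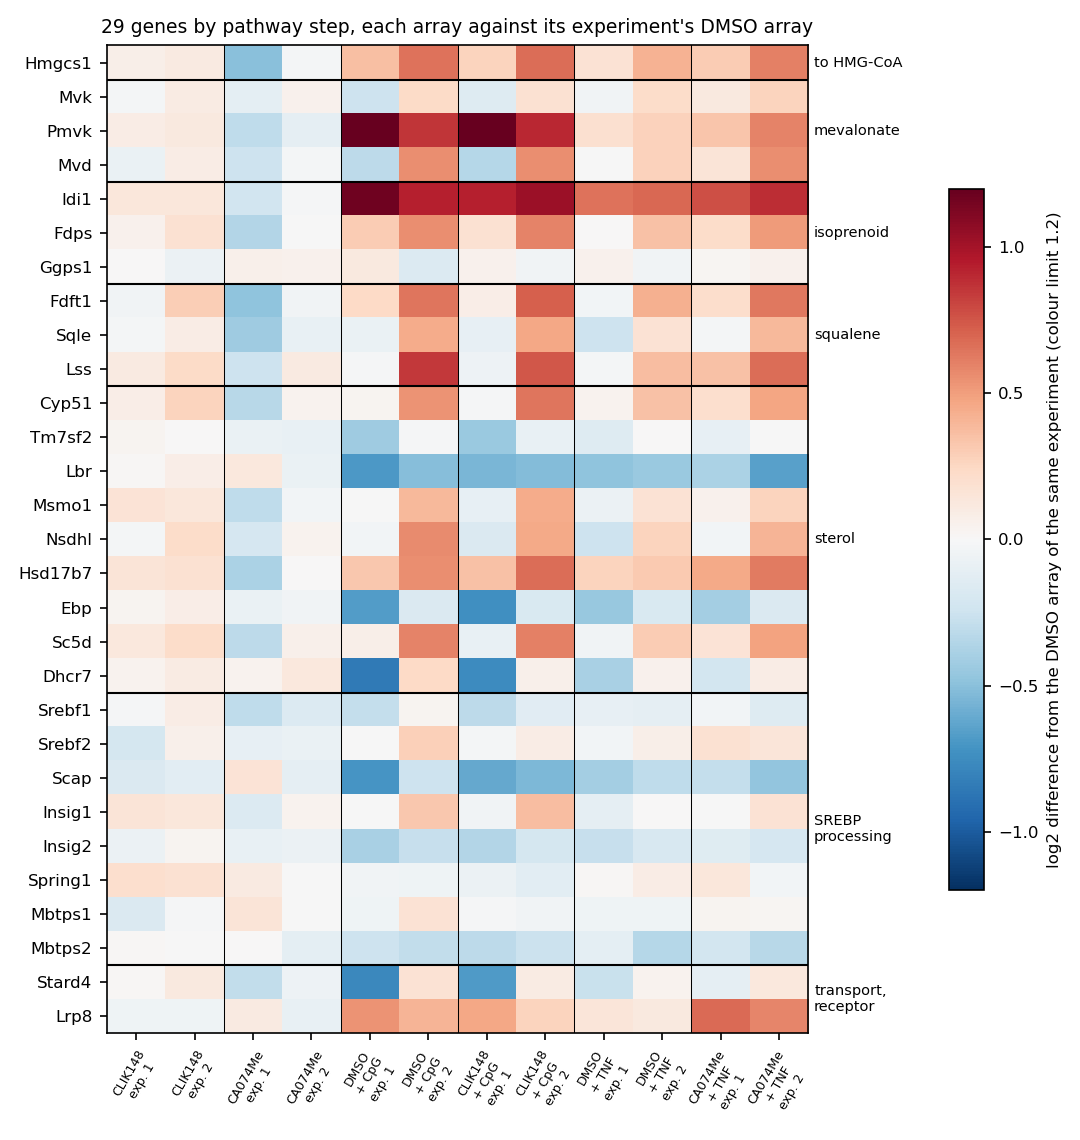
Log2 difference of each array from the DMSO array of the same experiment for the 29 genes, ordered by step of the pathway, with columns in pairs of experiments 1 and 2 (red, higher; blue, lower; colours limited at 1.2). With CpG, experiment 1 shows Pmvk and Idi1 far above the other enzymes, and experiment 2 shows a broader band of higher enzymes.

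After CLIK148, CpG gave 1 call among the 29 genes without the block, against 0.812% of all tested genes. Idi1 read 13.20 and 13.04 in CLIK148 cells and 13.99 and 13.93 with CpG. The groups did not overlap, and the difference was 0.85 ± 0.13 (limma adjusted p = 0.0224, and 0.00227 with the block). The call without the block was lost when any 1 of the 4 arrays was left out (adjusted p from 0.0664 to 0.218), and with the block it held in all 4 such fits. With the block 9 genes changed, against 17% of all tested genes, 4 higher (background 4.03%) and 5 lower (background 13%). Pmvk read 10.73 and 10.98 in CLIK148 cells and 12.14 and 11.77 with CpG, a difference of 1.10 ± 0.26 (limma adjusted p = 0.0899, and 0.0223 with the block). Hsd17b7 (0.34) and Lrp8 (0.42) were the other genes higher in that fit. The lower ones were Lbr (-0.58), Ebp (-0.51), Mbtps2 (-0.29), Spring1 (-0.29) and Insig2 (-0.26). When 1 array was left out of the blocked fit, Lrp8 remained called in 2 of 4 fits, Pmvk, Lbr, Ebp, Mbtps2 and Insig2 in 1 of 4, and Hsd17b7 and Spring1 in none. The mean of the Spring1 probe sets was -0.085. The count was 1 without either array of experiment 1, 2 without CLIK148 replicate 2 and 7 without CLIK148 plus CpG replicate 2.

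The change that CLIK148 made in the CpG response was tested as an interaction in limma, and none of the 29 genes was called in either fit. No member had an unadjusted p under 0.05 without the block and 1 had with it, and no gene among the 12192 was called (0% in both fits). The differences between responses had a median of -0.10, and 24 of the 29 were below 0, 17 of them in both experiments, against 57.1% and 25% of all tested genes. The median turned to 0.059 without CpG replicate 2 and to 0.075 without CLIK148 plus CpG replicate 1, and was -0.23 and -0.26 without the other arrays of those groups. After cyclic loess normalisation 10 of the 29 lay above 0 in place of 5. The largest was that of Sc5d, whose CpG response was 0.09 after CLIK148 and 0.34 after DMSO (difference -0.25, 95% interval -0.73 to 0.23). Spring1 (-0.25) and Lss (-0.24) followed. Between the CpG groups themselves, with CLIK148 against without, no member had an unadjusted p under 0.05 in either limma fit, and differences ran from -0.12 for Nsdhl to 0.07.

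TNF-alpha alone called none of the 29 genes in limma without the block, with 5 members under an unadjusted p of 0.05, and 0.115% of all tested genes were called. With the block Idi1 rose, against 3.11% of all tested genes called and 1.14% called as higher. It read 13.72 and 13.59 with TNF-alpha, against 13.06 and 12.90 in the DMSO cells that also served as controls for CpG. The groups did not overlap, and the difference was 0.67 ± 0.13 (limma adjusted p = 0.111, and 0.0125 with the block). The blocked call was lost when any of the 4 arrays was left out (adjusted p from 0.050 to 0.147). The next largest differences were those of Lbr (-0.46 ± 0.18), Scap (-0.36 ± 0.19) and Ebp (-0.32 ± 0.14). Lbr read 11.57 and 11.86 with TNF-alpha, below both DMSO arrays (limma adjusted p = 0.0537 with the block). Hmgcs1 differed by 0.29 ± 0.20 and Pmvk by 0.24 ± 0.26. The median over the 29 genes was 0.02 (-0.04 in experiment 1 and 0.12 in experiment 2), against -0.05 over all tested genes. It was -0.036 without TNF-alpha replicate 2, 0.10 without TNF-alpha replicate 1 and 0.0052 without DMSO replicate 1, and 0.089 after cyclic loess normalisation.

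The stimuli were also compared directly, through arrays that do not include the DMSO controls. No member was called in either limma fit, with 2 members under an unadjusted p of 0.05 without the block and 4 with it; of all tested genes 0.0082% and 0.435% were called. Pmvk was 1.05 log2 higher with CpG than with TNF-alpha, by 1.52 in experiment 1 and 0.58 in experiment 2 (95% interval 0.47 to 1.63; limma adjusted p = 0.472, and 0.120 with the block). Idi1 was 0.38 higher (0.10 to 0.66) and Lrp8 0.34 higher (-0.16 to 0.85).

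In CA074Me cells TNF-alpha raised 2 of the 29 genes without the block, against 1.3% of all tested genes called and 0.886% called as higher. Idi1 read 12.84 and 12.89 in CA074Me cells and 13.84 and 13.79 with TNF-alpha. The difference of 0.95 ± 0.13 was 1.94-fold (limma adjusted p = 0.0104, and 0.00102 with the block). Hsd17b7 read 9.35 and 9.69 in CA074Me cells and 10.19 and 10.31 with TNF-alpha. Its groups did not overlap either, and the difference was 0.72 ± 0.13, or 1.65-fold (adjusted p = 0.0382, and 0.00355 with the block). Without the block the Idi1 call was lost when any of the 4 arrays was left out (adjusted p from 0.0638 to 0.109), and that of Hsd17b7 was lost without CA074Me replicate 1 (0.273) or either array with TNF-alpha (0.130 and 0.297). With the block both remained called in all 4 such fits. The probe set kept for Hsd17b7 bears the maker's suffix for sets that can share probe sequence with other transcripts. Of its other sets above background, those reading 0.50 and 0.40 passed with the block only, and a dim set read 0.07. With its probe sets averaged, Hsd17b7 differed by 0.42 and was not called without the block (limma adjusted p = 0.105).

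With the block 8 of the 29 genes changed in CA074Me cells given TNF-alpha, against 11.1% of all tested genes. The 7 higher (background 4.96%) reached from the formation of HMG-CoA to the sterols and the receptor: Hmgcs1, Idi1, Fdps, Fdft1, Cyp51, Hsd17b7 and Lrp8. Hmgcs1 read 12.65 and 13.15 in CA074Me cells and 13.46 and 13.78 with TNF-alpha, a difference of 0.72 ± 0.20 (limma adjusted p = 0.163, and 0.00636 with the block). Fdft1 went from 11.36 and 11.85 to 12.05 and 12.53, with a difference of 0.69 ± 0.30 (0.404, and 0.0101 with the block). Neither gene's groups overlapped. Fdps differed by 0.54 ± 0.13 (limma adjusted p = 0.0978, and 0.00991 with the block). Cyp51, lanosterol demethylase, differed by 0.48 ± 0.19 (limma adjusted p = 0.351, and 0.0483 with the block). With its probe sets averaged, Fdps differed by 0.27. Lrp8 went from 8.68 and 8.92 to 9.26 and 9.59, with a difference of 0.62 ± 0.22 (limma adjusted p = 0.281, and 0.00147 with the block), and remained called in all 4 blocked fits that left out 1 array. In those fits Hmgcs1, Fdps and Lbr remained called in 2 of 4, Fdft1 in 1 and Cyp51 in none (adjusted p from 0.120 to 0.274). The 1 lower gene (background 6.14%), Lbr, went from 12.18 and 12.23 to 11.67 and 11.65. Its difference was -0.54 ± 0.18 (limma adjusted p = 0.240, and 0.0140 with the block). The blocked count ranged from 3, without CA074Me replicate 1 or CA074Me plus TNF-alpha replicate 2, to 7 without CA074Me replicate 2.

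The medians of this response were close in the experiments. The median over the 29 genes was 0.25, with 0.27 in experiment 1 and 0.22 in experiment 2, against -0.02 over all tested genes. For the 19 synthesis enzymes it was 0.44, with 0.40 and 0.44. Above 0 in both experiments were 19 of the 29 genes, against 32.5% of all tested genes. They included all 3 enzymes from squalene to lanosterol and all 3 from mevalonate to isopentenyl diphosphate. The 8 genes for SREBP and its processing had a median of -0.02, with Srebf2 at 0.25 ± 0.14 and Scap at -0.41 ± 0.19, and none was called in either fit.

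Whether CA074Me changed the response to TNF-alpha was tested as an interaction in limma, and no member was called in either fit. Under an unadjusted p of 0.05 were 1 member without the block and 6 with it, and 0% of all tested genes were called in both fits. The TNF-alpha response was larger after CA074Me than after DMSO for 25 of the 29 genes, and in both experiments for 21, against 60.7% and 36.8% of all tested genes. After cyclic loess normalisation it was larger for 22 in place of 25. The median difference between the responses was 0.26, with 0.37 in experiment 1 and 0.12 in experiment 2, against 0.03 over all tested genes. For Lrp8 the responses were 0.62 and 0.13 (difference 0.49, 95% interval -0.22 to 1.21, and 0.27 to 0.72 with the block). For Fdft1 they were 0.69 and 0.20 (difference 0.49, -0.47 to 1.45) and for Sqle 0.44 and -0.03 (difference 0.48, -0.53 to 1.49).

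**Figure D4:**
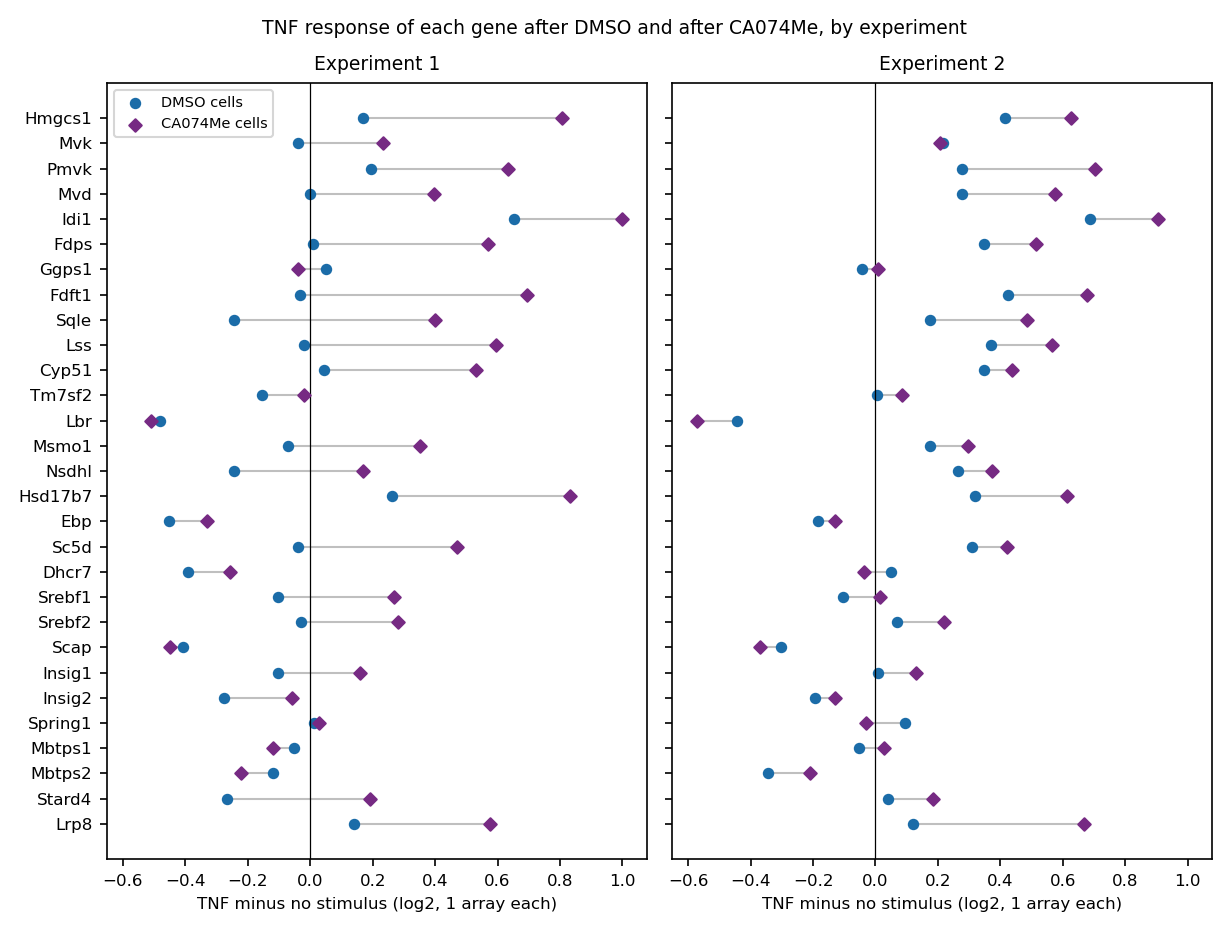
Log2 difference between TNF-alpha and no stimulus for each of the 29 genes in DMSO cells (circles) and CA074Me cells (diamonds), each point 1 array minus 1 array, in experiments 1 (left) and 2 (right). Diamonds lie to the right of circles for most genes in both panels, with wider gaps in experiment 1, where the median gap was 0.37 against 0.12 in experiment 2.

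Both sides of that difference can be read from the levels. Without a stimulus, 22 of the 29 genes were lower in CA074Me than in DMSO cells, 14 of them in both experiments. Over all tested genes these shares were 62.3% and 37.7%. The members' median was -0.21 in experiment 1 and -0.02 in experiment 2, against -0.02 and -0.03 over all tested genes. It was therefore below that of all tested genes in experiment 1 only, where each group has 1 array. No member had an unadjusted p under 0.05 without the block and 2 had with it, and none was called in either limma fit (0% of all tested genes). The largest differences were those of Fdft1 (-0.26, 95% interval -0.94 to 0.42), Hmgcs1 (-0.26, -0.72 to 0.20) and Sqle (-0.26, -0.97 to 0.46). In experiment 1 Hmgcs1 read 13.15 in DMSO and 12.65 in CA074Me cells, and in experiment 2 it read 13.17 and 13.15. Under TNF-alpha, 25 of the 29 genes were higher with CA074Me than without, 21 in both experiments, against 52.1% and 29.7% of all tested genes, with a median of 0.13. Again no member was called in either limma fit, with none under an unadjusted p of 0.05 without the block and 2 with it (0% and 0.0082% of all tested genes were called). Lrp8 differed most there, with 9.26 and 9.59 against 8.72 and 9.13 (difference 0.50, limma adjusted p = 0.162 with the block). Lss (0.34) and Hsd17b7 (0.25) came next.

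The inhibitors were compared with each other at their common dose of 5 µM and with no stimulus, as 1 pair of compounds. None of the 29 genes was called in either limma fit, with 3 members under an unadjusted p of 0.05 without the block and 8 with it (0% of all tested genes were called). Levels were higher with CLIK148 than with CA074Me for 24 of the 29 genes, and in both experiments for 22, against 54.9% and 31.6% of all tested genes. The median difference was 0.18, and after cyclic loess normalisation 22 genes were higher in place of 24. Fdft1 read 11.80 and 12.19 with CLIK148 and 11.36 and 11.85 with CA074Me, a difference of 0.39 (95% interval -0.29 to 1.07, and 0.11 to 0.67 with the block). Hsd17b7 differed by 0.36 (0.07 to 0.65) and Hmgcs1 by 0.35 (-0.11 to 0.81). Against DMSO, CLIK148 alone gave differences between -0.15 for Scap and 0.19 for Spring1. The median was 0.07, against -0.01 over all tested genes. Above DMSO were 23 of the 29 genes, 16 of them in both experiments, against 4906 and 2333 of the 12192 tested genes. With CLIK148, 1 member was under an unadjusted p of 0.05 in each limma fit and none was called (0% of all tested genes). The DMSO arrays are shared between the comparisons of each inhibitor and each stimulus with DMSO.

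The experiments themselves differed in these genes. In the blocked limma fit 10 of the 29 were higher in experiment 2 than in experiment 1 and none lower, against 44.6% of all tested genes called, 32.4% higher and 12.2% lower. The members' count was therefore not above the background. Sqle differed by 0.46 (95% interval 0.30 to 0.62), Fdft1 by 0.44 and the sterol reductase Tm7sf2 by 0.40. The others were Lrp8, Srebf1, Hmgcs1, Lbr, Cyp51, Insig2 and Srebf2, between 0.17 and 0.34.

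Other lipid genes were read from further lists. Of 15 genes for fatty acid synthesis, which SREBP1 drives, 2 lay above 0 with CpG and the median was -0.37 (-0.60 in experiment 1 and 0.07 in experiment 2). None was called without the block. With it 1 rose, Me1 (malic enzyme, 0.38), and 3 fell, the elongase Elovl5 (-0.42), the desaturase Fads1 (-0.97) and the acyl-CoA synthetase Acsl3 (-0.76), beside 6.18% of all tested genes higher and 13.7% lower. After CLIK148 the list had a median of -0.39, and the blocked fit again called Me1 higher (0.43) and Elovl5 (-0.52), Fads1 (-0.96) and Acsl3 (-0.92) lower. With TNF-alpha its median was -0.17 and Elovl5 was lower in that fit (-0.60, background 1.97% lower). With TNF-alpha after CA074Me it was -0.03, with Me1 higher (0.51) and Elovl5 lower (-0.85). Of 8 tested genes for oxysterols and their receptor LXR, Mylip, a ubiquitin ligase that degrades lipoprotein receptors, rose by 1.04 with CpG in the blocked fit. Cyp27a1, a sterol hydroxylase, differed by -0.85 and the receptor partner Rxra by -0.40 in that fit. Mylip (0.97) and Cyp27a1 (-1.06) were also called there with CpG after CLIK148, and Cyp27a1 (-0.99) with TNF-alpha after CA074Me. The largest differences in this list, 1.77 with CpG and 1.65 with CpG after CLIK148, were called in neither fit. Among 14 genes for cholesterol transport and storage, Nceh1, which splits cholesteryl esters, fell with CpG by 1.10 ± 0.16 (limma adjusted p = 0.0176). It also fell with CpG after CLIK148 (-1.19) and with TNF-alpha after CA074Me (-1.21), and with TNF-alpha alone in the blocked fit (-0.80). Osbpl2 was lower with CpG in the blocked fit (-0.43). The 11 genes that use isoprenoids had a median of -0.08 with CpG and no call in either fit. Pdss2, which builds the side chain of coenzyme Q, was lower in the blocked fit with CpG after CLIK148 (-0.33) and with TNF-alpha after CA074Me (-0.32).

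**Figure D5:**
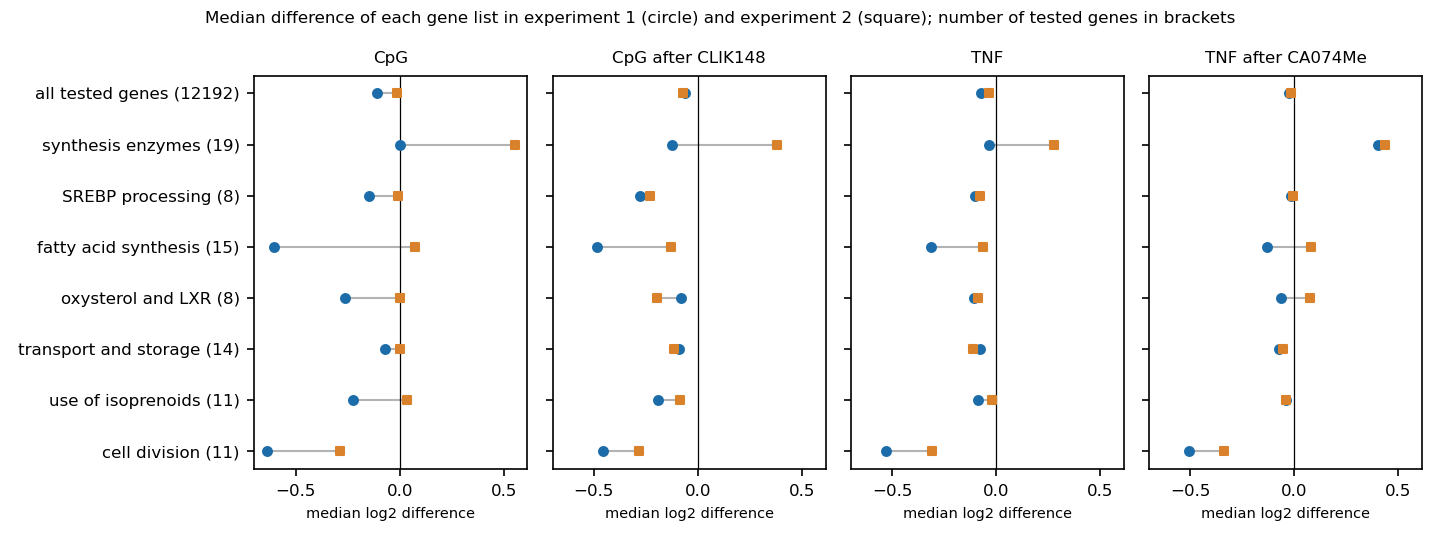
Median log2 difference of all tested genes and 7 gene lists (the stimulation check and cell type markers are not plotted) in experiment 1 (circle) and experiment 2 (square) for the 4 responses, with the number of tested genes in brackets. With TNF-alpha after CA074Me the synthesis enzymes lay at 0.40 and 0.44, to the right of the other lists plotted, while with CpG their medians were 0.00 and 0.55.

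The lists of cell division genes and macrophage markers had lower medians with the stimuli, while no granulocyte marker was called. All 11 cell division genes on the array lay below 0 in each of the 4 responses, with medians from -0.42 to -0.41, and none was called without the block. In the blocked fit 7 fell with CpG, Rrm2, Tk1, Ccna2, Cdk1, Aurkb, Mcm5 and Pcna, against 13.7% of all tested genes lower. With TNF-alpha 3 fell (Rrm2, Tk1 and Cdk1, background 1.97%). After CLIK148 6 fell with CpG, the same without Pcna (background 13%), and after CA074Me 6 fell with TNF-alpha, Rrm2, Tk1, Cdk1, Plk1, Aurkb and Mcm5 (background 6.14%). Their mean level per array was 11.07 and 11.29 in DMSO cells, 10.48 and 10.96 with CpG, and 10.55 and 10.98 with TNF-alpha. The mean of the 7 macrophage markers was 12.06 and 11.80 in DMSO cells, 11.67 and 11.50 with CpG, and 11.46 and 11.52 with TNF-alpha. Of these 7, 2 lay above 0 with CpG and none with TNF-alpha. For the 7 granulocyte markers the mean in the same groups was 12.55 and 12.47, 12.64 and 12.53, and 12.62 and 12.48. The part of these shifts in the results above was not tested.

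Of the 29 genes, 19 had more than 1 probe set, and 31 of the 36 sets not used were bright. For Lss, Sc5d and Srebf2 a dimmer set lay on the other side of 0 with CpG (-0.16, -0.24 and -0.20, against 0.41, 0.34 and 0.14), and none of these values was called in either fit. For Insig2 all 3 sets lay below 0 with CpG, between -0.39 and -0.18.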

How the data were processed

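Per the submitters' processing notes, the authors' deposited log2 values are RMA summaries made in R 3.0.1, and no source here states its settings. RMA corrects background, normalises quantiles and summarises probes, and it compresses differences of dim probe sets. Of 45101 probe sets, 34945 named 1 gene, 932 several and 9160 none, and 64 were controls. Each gene was read from its single-gene probe set of highest mean level. Genes above the overall median of 7.52 log2 on at least 2 arrays were tested 2-sided in 1 fit of all 14 arrays by group (limma 3.58.1, R 4.3.3, 7 residual degrees of freedom), with Benjamini-Hochberg adjustment over 12192 genes in each of 12 comparisons.

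The design text describes 2 independent experiments, and the replicate numbers were read as pairing the arrays by experiment. The step from replicate 1 to replicate 2 correlated between groups in all 21 pairs (r from 0.455 to 0.935, median 0.760). The blocked fit adds the experiment (6 residual degrees of freedom). Without it, standard errors include the gap between experiments. The number of arrays limits the precision.

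The members and lists were chosen with earlier results of these data known. Named genes are the members called in either fit, or otherwise those with the largest differences, and other members are given by values or ranges. Of the other lipid lists and the cell division list, called genes are named, and cell type markers are given by counts and levels. Not on the array as single genes were Nr1h2, Ncor1, Soat1, Pdss1, Ccnb1 and some other listed genes and markers. Scripts were tested on simulated data that held no gap between experiments. Without the block, the fit recovered 71.5% of added differences of 1 log2 and 11.5% of those of 0.5 log2. A gene without a call is therefore not shown to be unchanged. Alternatives were the block, no filter, averaged probe sets, cyclic loess, only the compared groups, and leaving out each array.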

Additional observations from a re-analysis of the deposited data

Results flagged for a closer look

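Probe sets that the values above did not use gave 2 further calls among these genes, in limma fits over all 24464 bright probe sets without the block. A second set for Idi1 was higher with CpG by 0.94 ± 0.19 (1.07 in experiment 1 and 0.82 in experiment 2, adjusted p = 0.0481). A second set for Hmgcs1 was higher with TNF-alpha after CA074Me by 0.57 ± 0.09 (0.47 and 0.67, adjusted p = 0.0331), where the brighter set used above had passed with the block only. Another set for Fdft1 read 0.43 with CpG and 0.68 with TNF-alpha after CA074Me, close to the 0.44 and 0.69 of the set used. Averaged over its 4 probe sets, Fdft1 differed by 0.27 with CpG and 0.38 with TNF-alpha after CA074Me, so the remaining sets read lower on average. The set used for Fdft1 bears the same maker's suffix as that kept for Hsd17b7.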

How the results depend on the processing

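The blocked fit moved the number of members called from 2 to 11 with CpG, from 0 to 1 with TNF-alpha, from 1 to 9 with CpG after CLIK148 and from 2 to 8 with TNF-alpha after CA074Me, and called no member in the other 8 comparisons. With no filter on dim genes 1 member was called with CpG. With only the compared groups in the fit, which leaves 2 residual degrees of freedom in place of 7, 0 were called with CpG, CpG after CLIK148 or TNF-alpha after CA074Me. With probe sets averaged per gene, TNF-alpha after CA074Me called 1 and its median was 0.16, and the median of the CLIK148 by CpG interaction was -0.085. Cyclic loess gave medians of 0.0028 for CLIK148 under CpG, where 16 members then lay above 0 in place of 9, and -0.065 for that interaction. It moved the median of all genes by at most 0.06, and called Hsd17b7 with CpG (adjusted p = 0.0414). The cause of these changes was not tested. No value changed sign while called.

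Leaving out 1 array at a time, calls ranged from 0 to 4 with CpG and from 0 to 1 with TNF-alpha after CA074Me, and were 0 with CpG after CLIK148. With the block they were 4, 5, 2 and 14 with CpG, 1 to 7 with CpG after CLIK148, 3 to 7 with TNF-alpha after CA074Me and 0 with TNF-alpha. Medians ranged from -0.038 to 0.28 for CpG, -0.036 to 0.10 for TNF-alpha, -0.13 to 0.095 for CpG after CLIK148, 0.21 to 0.29 for TNF-alpha after CA074Me, -0.20 to 0.12 for CLIK148 under CpG, 0.038 to 0.17 for CA074Me under TNF-alpha, -0.059 to 0.24 for CpG against TNF-alpha, 0.11 to 0.18 for CLIK148 against CA074Me, -0.26 to 0.075 for the CLIK148 by CpG interaction, and 0.19 to 0.32 for the CA074Me by TNF-alpha interaction. The blocked fits that left out 1 array were chosen after seeing the data.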
